A study of Mus musculus with 10 samples.

Results

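The stretch of the mouse X chromosome that holds Gata1, Hdac6, Pqbp1 and Timm17b was described by the promoter contacts that start there. Its members were all deposited contacts whose captured fragment (the bait) contains the lower or upper limit of 1 of these 4 genes, as given for GRCm38 (mm10) in RefSeq. This gave 5 baits with 141 listed contacts of 88624 in the list of haematopoietic stem and progenitor cells (HSPCs), and 0 of 25622 in the list of neutrophils. The genes had been chosen with results of these data known, among them the lower contact scores of Hdac6 in double-mutant than in wild-type HSPCs, so that contrast is given here as a description. The locus was thus selected on scores of these libraries, the Hdac6 bait means in DM and WT.

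Contacts were measured by promoter-capture Hi-C, which ligates pieces of crosslinked chromatin that lay close together and then pulls out the ligation products that contain a promoter. The cells came from the bone marrow of C57BL/6 mice, with 2 biological replicates a group. The groups were lineage-negative HSPCs of wild-type (WT) mice, of mice with either mutation, Npm1c or Flt3-ITD, and of double mutants (DM) that carry both, and neutrophils of WT mice. Both cell types were prepared with cell isolation kits, and no treatment, age or sex of the mice is given in the labels used here, nor the promoter or Cre that drives the mutant alleles. Npm1c is a mutant nucleophosmin that moves to the cytoplasm. Flt3-ITD carries an internal tandem duplication and leaves the cytokine receptor Flt3 switched on. Each listed contact has 1 interaction score per library, which is never negative and whose reference is not stated. A contact entered the HSPC list when both replicates of any HSPC group gave it 5 or more, and the files hold no read counts, so that the depth of each library is unknown and the spread between 2 libraries is the measure of error. The labelled cell types could not be checked against marker expression, since contacts are not transcripts.

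GATA1 is a zinc-finger transcription factor needed for red cell, megakaryocyte, eosinophil and mast cell development. Hdac6 encodes a mainly cytoplasmic deacetylase that acts on tubulin, Pqbp1 encodes a polyglutamine-binding protein with a role in splicing, and Timm17b encodes a subunit of the mitochondrial inner-membrane import channel. Promoters touch distant fragments through looping within domains of the chromosome, and such contacts can bring enhancers to promoters.

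RefSeq bases before the starts of the 4 genes (GRCm38.p6) are shown first because they place the promoters on, or off, the captured fragments. Pqbp1 is read on the minus strand and Timm17b on the plus strand, and 66 bases lie between their starts (chrX:7899270-7899335, plus strand, capitals mark CCAAT in that direction). The Hdac6 bases are the 92 before the upper limit of the gene (chrX:7948048-7948139, minus strand, capitals mark GGGCGG). They are not next to the RefSeq start of Hdac6, which lies at 7947889. The Gata1 bases are the 250 before its RefSeq start at 7967910 (chrX:7967911-7968160, minus strand, capitals mark CACCC and GGGCGG). The last line is 26 bases around the HindIII cut site at which the fragment with both the Pqbp1 and Timm17b starts begins (chrX:7899069-7899094, plus strand, capitals mark the site AAGCTT).
Pqbp1 and Timm17b: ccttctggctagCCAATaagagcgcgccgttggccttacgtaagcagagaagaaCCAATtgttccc
Hdac6: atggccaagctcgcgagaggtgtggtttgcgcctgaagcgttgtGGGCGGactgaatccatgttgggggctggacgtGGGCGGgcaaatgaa
Gata1: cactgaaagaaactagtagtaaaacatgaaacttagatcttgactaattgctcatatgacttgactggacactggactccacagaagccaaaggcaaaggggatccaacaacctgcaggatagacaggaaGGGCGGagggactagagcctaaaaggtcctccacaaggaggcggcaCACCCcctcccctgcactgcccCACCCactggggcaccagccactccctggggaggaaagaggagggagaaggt
HindIII site: ctttaaaagaAAGCTTacaccccagc

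Each window was searched on both strands for the CCAAT box, for the CACCC box of erythroid promoters, for GATAA, which holds the core that GATA factors bind, for the GC box GGGCGG and for the HindIII site AAGCTT. The bases between Pqbp1 and Timm17b held 2 matches to CCAAT, and 12.3% of the 32851 RefSeq promoter windows held at least 1 in the same stretch before the start. The Hdac6 bases held 2 matches to GGGCGG, and 9.54% of promoters held at least 1 in the same stretch. That stretch is the first 92 bases of each window, which begins 250 bases before the start, so it is not next to the start. In the 66 bases next to the start, 19.8% of promoters held GGGCGG. The Gata1 bases held 2 matches to CACCC and 1 to GGGCGG, found in 52.0% and 32.7% of promoters, and 0 to GATAA, found in 22.6%. These are matches of letters, and none overlapped another.

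The 5 baits lie within X:7899080-7980606. The Pqbp1/Timm17b bait (X:7899080-7906072) holds the Timm17b start and the upper of the 2 RefSeq starts of Pqbp1 (7899269), while the other Pqbp1 start (7899000) lies just below the HindIII site and off this bait. It had 55 listed contacts, and the next fragment, the Timm17b downstream bait (X:7906073-7911533), holds the other limit of Timm17b and had 20. The Hdac6 lower-end bait (X:7924286-7937352, 35 contacts) holds the 3′ limit of Hdac6 together with a limit each of Eras and Pcsk1n, so its contacts cannot be given to 1 gene. The Hdac6 promoter bait (X:7942265-7958314) had 25 contacts. The Gata1 upstream bait (X:7974091-7980606) had 6, and it holds the upper limit of the Gata1 gene record at 7976663 but not the RefSeq start, which lies in the neighbouring fragment X:7958315-7974090. That neighbouring fragment was no bait in the list, and it was seen only as the other end of 2 of the 5 baits.

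WT HSPCs had the most contacts at the threshold of 5. Of the 141 contacts, 120 (85.1%) reached 5 in both WT replicates, 53 (37.6%) in both Npm1c replicates, 28 (19.9%) in Flt3-ITD and 25 (17.7%) in DM. Over all 88421 contacts on autosomes and X the order was the other way, with 34.9% in WT, 41.8% in the Npm1c group, 51.2% in Flt3-ITD and 48.8% in DM. At the locus, 73 contacts (51.8%) reached 5 in WT only, against 10.3% of all contacts. In all 4 groups 9 (6.38%) reached it, against 10.2% of all contacts. A further 16 reached it in WT and Npm1c only, as did 1957 of all 88421. Of the 141, 21 (14.9%) did not reach it in WT, against 65.1% of all contacts. Most members were therefore listed through WT, and that choice alone favours higher WT scores among them.

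The order of the groups was seen in single libraries. Both WT libraries scored above all 6 mutant libraries in 53 of the 73 contacts listed through WT alone, which that listing favours. Among the 68 contacts that a mutant group brought into the list, they did so in 14 (20.6%), where 1.49% of all contacts so listed did, and in 1 of the 68 both WT libraries scored below all 6. The Hdac6 bait means in DM and WT chose the locus, so this share draws on values behind that choice. Of the 68, 69.1% reached the threshold in both WT replicates, against 27.4% of all contacts so listed. The sets are thus unlike, and both shares are given as a description. The profile plot of scores along the chromosome shows where the locus contacts lay.

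**Figure D1:**
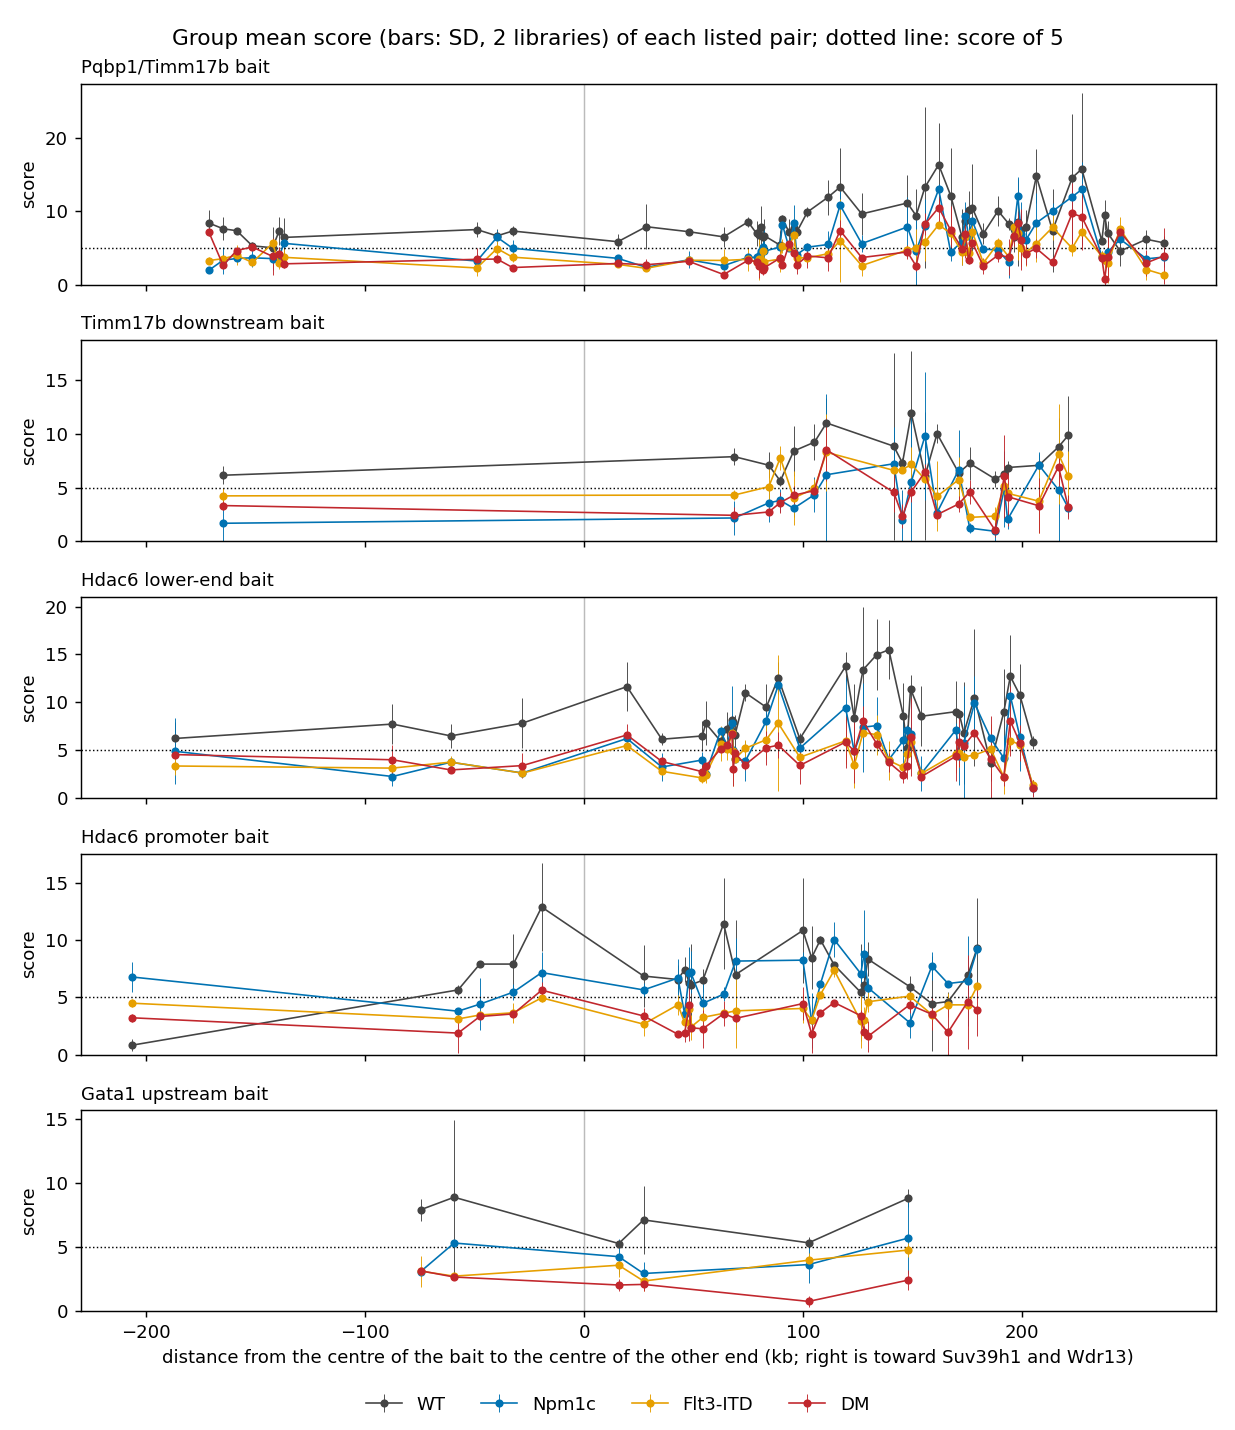
Group mean interaction score (bars: SD over 2 libraries) of each listed contact of the 5 baits, against the distance in kb from the bait to the other end. The WT line runs above the mutant lines over most of each profile, and 119 of the 141 other ends lie on the side of Suv39h1 and Wdr13.

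All 141 contacts stayed on the X chromosome. Of them, 119 (84.4%) pointed toward the side of Suv39h1 and Wdr13, at higher coordinates, and 22 to the side of Praf2 and Tfe3. The distance ranged from 15.3 to 264.7 kb, with a median of 129.5 kb. The stretch from the lower limit of Suv39h1 to the upper limit of Wdr13 (X:8061171-8132858) took 56 of the 141 other ends.

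Gata1 upstream bait. All of its 6 contacts had lower group means in each mutant group than in WT. Of these, 5 were listed through WT alone, and that listing favours this order. Its mean score was 6.00 and 8.49 in the WT libraries, 4.92 and 3.42 in Npm1c, 3.73 and 3.14 in Flt3-ITD, and 2.07 and 2.34 in DM. Both WT libraries lay above all 6 mutant libraries, both DM libraries lay below all others, and Npm1c and Flt3-ITD overlapped. On the log2(score + 1) scale its level was 2.99 (SD 0.29) in WT, 2.32 (SD 0.29) in the Npm1c group, 2.11 (SD 0.12) in Flt3-ITD, while DM had 1.62 (SD 0.06). It reached 5 in both replicates at 5 of 6 contacts in WT, 1 in Npm1c and 0 in Flt3-ITD and DM.

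The contact of this bait with the fragment of the Pqbp1 and Timm17b starts, 74.8 kb away, scored 7.31 and 8.55 in WT, 3.00 and 3.20 in Npm1c, 3.99 and 2.28 in Flt3-ITD and 3.16 and 3.17 in DM. All 3 mutant groups lay near one another and below WT. The contact with X:8078377-8081167, between Suv39h1 and Wdr13, scored 5.03 and 5.66 in WT, 4.66 and 2.64 in Npm1c, 4.42 and 3.57 in Flt3-ITD, and 1.08 and 0.47 in DM, so that DM stood below every other library there. The contact with the fragment of Pcsk1n and Eras (X:7911534-7924285) scored 4.63 and 13.2 in WT and 5.32 and 5.35 in Npm1c, so that the lower WT library was below both Npm1c libraries. With 6 contacts the bait was under the minimum of 10 for the bait tests.

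The fragment that holds the RefSeq start of Gata1 gave 2 contacts. From the Pqbp1/Timm17b bait, 63.6 kb away, it scored 5.58 and 7.45 in WT, 2.15 and 3.02 in Npm1c, 4.45 and 2.16 in Flt3-ITD and 1.55 and 1.19 in DM. From the Hdac6 lower-end bait, 35.4 kb away, it scored 5.69 and 6.59 in WT, 2.22 and 4.26 in Npm1c, 2.57 and 3.00 in Flt3-ITD and 3.88 and 3.77 in DM. From both baits the 2 WT libraries were above all mutant libraries. Both contacts were listed through WT alone, and that listing favours this order.

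Hdac6 promoter bait. At this bait the Npm1c libraries lay within the range of the WT libraries, which was so at none of the other 4 baits. Its mean score was 6.07 and 8.48 in WT, 6.18 and 6.44 in Npm1c, 3.98 and 4.05 in Flt3-ITD and 2.56 and 3.86 in DM. Flt3-ITD and DM lay below both. In WT the log2 level was 2.92 (SD 0.31), in Npm1c 2.79 (SD 0.06), in Flt3-ITD 2.27 (SD 0.02), and DM was lowest with 1.97 (SD 0.35). Of its 25 contacts, 18 reached 5 in WT, 16 in the Npm1c group, 3 in Flt3-ITD and 1 in DM.

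The strongest contact of the Hdac6 promoter joined it to the fragment with the 3′ end of Hdac6, 19.5 kb away, with 10.2 and 15.6 in WT, 5.92 and 8.43 in Npm1c, 4.72 and 5.22 in Flt3-ITD and 5.12 and 6.16 in DM. The contact with X:8008524-8019287 at Glod5, which encodes a glyoxalase-domain protein, scored 8.66 and 14.3 in WT, 5.71 and 4.87 in Npm1c, 3.39 and 3.85 in Flt3-ITD and 2.80 and 4.38 in DM. In both contacts the lower WT library was above every mutant library. The Glod5 contact was listed through WT alone, which favours that order. The contact with X:8061428-8067341 in Suv39h1, which encodes a histone H3 lysine methyltransferase, was also chosen after its values were seen and had another order, with 8.04 and 7.66 in WT, 11.1 and 9.00 in Npm1c, 7.76 and 6.99 in Flt3-ITD and 4.51 and 4.61 in DM. Npm1c was highest there and DM lowest.

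A further contact, chosen after its values were seen, went against the rest. The Hdac6 promoter bait with X:7742292-7745430, 206 kb away on the side of Praf2, scored 0.45 and 1.21 in WT, 5.88 and 7.71 in Npm1c, 4.27 and 4.73 in Flt3-ITD and 3.47 and 2.98 in DM. It is the contact in which both WT libraries were below all 6 mutant libraries. The difference of Npm1c from WT was 2.11 on the log2 scale (SE 0.34, limma, adjusted p = 0.0640). This contact was listed through Npm1c alone, and that listing favours a higher Npm1c score, so the difference is a description. The same other end scored 7.08 and 7.64 in WT from the Pqbp1/Timm17b bait.

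Hdac6 lower-end bait. Its mean score was 7.57 and 10.3 in WT, 5.30 and 6.08 in Npm1c, 4.43 and 4.53 in Flt3-ITD, and 4.00 and 5.16 in DM. WT did not overlap any mutant group, while the DM range held that of Flt3-ITD. Its contact with X:8067342-8072404 in Suv39h1 had scores of 13.3 and 17.7 in WT, 4.39 and 3.64 in Npm1c, 5.35 and 2.50 in Flt3-ITD and 3.04 and 4.40 in DM. The WT libraries were far above all others, which overlapped. Listing through WT alone favours that gap here. Of its 35 contacts, 32 reached 5 in WT, 13 in the Npm1c group, 7 in Flt3-ITD and 8 in DM.

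Pqbp1 and Timm17b. The bait with both starts had mean scores of 7.35 and 9.61 in WT, 5.88 and 5.68 in Npm1c, 4.76 and 4.23 in Flt3-ITD and 3.95 and 4.85 in DM. WT was highest without overlap, Npm1c was next, and Flt3-ITD and DM overlapped. Its strongest contact, with X:8061428-8067341 in Suv39h1, scored 12.3 and 20.4 in WT, 12.5 and 13.6 in Npm1c, 7.83 and 8.52 in Flt3-ITD and 11.9 and 9.16 in DM. There Npm1c lay within the WT range, and Flt3-ITD was lowest. Of the 55 contacts, 47 reached 5 in WT, 21 in the Npm1c group, 12 in Flt3-ITD and 13 in DM.

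A contact of this bait with X:7729239-7732892 at Praf2 and Ccdc120, also chosen after its values were seen, split the groups differently. It scored 9.71 and 7.12 in WT, 2.01 and 1.88 in Npm1c, 3.59 and 2.98 in Flt3-ITD and 7.11 and 7.34 in DM. WT and DM were high and both single mutants low. The interaction, which is DM plus WT less both single mutants, was 2.61 (SE 0.43, limma, adjusted p = 0.0520). This contact was listed through WT and DM only, and that listing favours a positive interaction, so the value is a description.

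The Timm17b downstream bait was the least even. Its mean score was 7.13 and 8.63 in WT, 2.33 and 5.94 in Npm1c, 4.89 and 5.79 in Flt3-ITD, and 3.65 and 4.63 in DM. Npm1c replicate 1 stood alone, with 3 of 20 contacts at 0 and 2 at 5 or more, against 9 at 5 or more in Npm1c replicate 2. The log2 level in Npm1c, 2.05, had an SD of 0.81, and Npm1c could not be placed in order with Flt3-ITD (2.57, SD 0.17) or DM (2.25, SD 0.16).

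**Figure D2:**
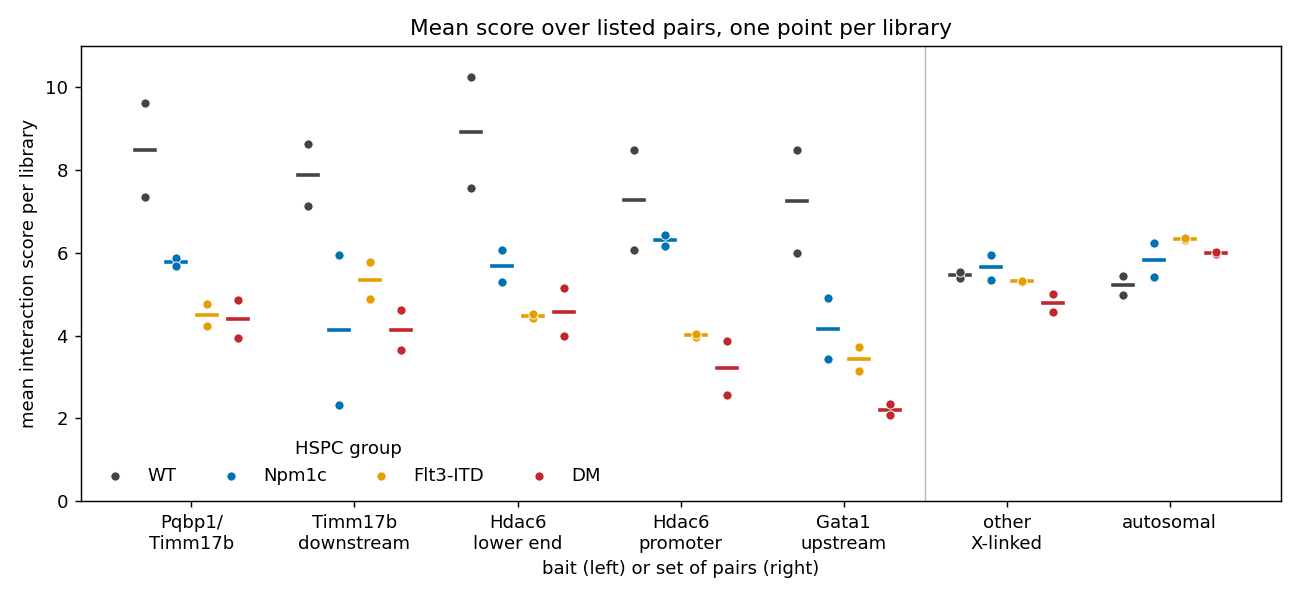
Mean interaction score per library (points) and group mean (lines) over the listed contacts of each bait, and over other X-linked and autosomal contacts. WT libraries lie between 6.00 and 10.3 at the 5 baits, other X-linked contacts are lowest in DM, and autosomal contacts are lowest in WT.

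Over all 141 contacts the log2 level was 3.11 (SD 0.24) in WT, 2.55 (SD 0.15) in the Npm1c group, 2.36 in Flt3-ITD and 2.22 (SD 0.19) in DM. WT differed from each mutant group without overlap, but an exact permutation test of 2 libraries against 2 cannot give a two-sided p below 0.333. Other X-linked contacts had 2.49 in WT, 2.55 in the Npm1c group, 2.50 in Flt3-ITD and 2.35 in DM, and autosomal contacts 2.43, 2.57, 2.71 and 2.62. Without the locus, X-linked contacts at 5 or more numbered 574 in WT, 561 in the Npm1c group, 491 in Flt3-ITD and 373 in DM, of 1314, so that WT and Npm1c were close and DM lowest. The sex of the mice is not in the labels used here, and the part of an X-wide difference in the locus values was not tested beyond centring on X-linked baits, given with the tests.

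The neighbours shared the order in part. Of 203 contacts of other baits between 7.6 and 8.3 Mb, 59.1% reached 5 in WT, 41.4% in the Npm1c group, 24.6% in Flt3-ITD and 21.7% in DM. The 203 include the 32 contacts that end on a locus fragment, of which 26 reached 5 in WT. A share of 38.4% (78) was listed through WT alone. The neighbours are thus not separate from the locus, and the listing favours WT among them too. Among the other 7 baits of this window with at least 10 listed contacts, the level in DM and in Flt3-ITD was below WT in 7, and that in Npm1c in 6. Their gaps were not alike: the bait of Otud5, Pim2 and Slc35a2 had log2 levels of 2.78 in WT and 2.12 in DM, whereas that of Was, the Wiskott-Aldrich syndrome gene of blood cells, had 2.60 and 2.59.

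**Figure D3:**
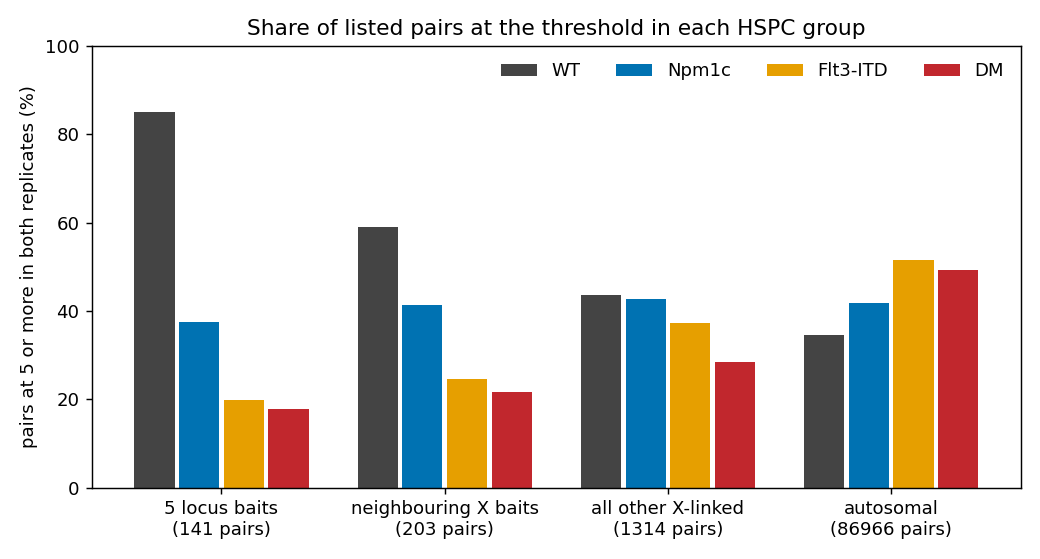
Percentage of listed contacts at 5 or more in both replicates of each HSPC group. The 5 locus baits run from 85.1% in WT to 17.7% in DM, neighbouring X baits from 59.1% to 21.7%, and autosomal contacts rise from 34.7% in WT to 49.2% in DM.

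The baits met the same other ends. The 141 contacts had 62 distinct other ends, of which 4 were shared by all 5 baits, 10 by 4 baits, 11 by 3, 11 by 2, and 26 belonged to 1 bait. The 4 common ends were X:7991927-7994165, X:8000302-8008523 at Glod5, X:8078377-8081167, and X:8124504-8126158 in Wdr13, which encodes a WD-repeat protein. In 13 of the 14 ends shared by 4 or 5 baits the WT group mean was the highest. The listing of most of the 141 contacts through WT favours that order.

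At the Glod5 end the mean over 5 baits was 7.99 and 9.18 in WT, 3.28 and 4.52 in Npm1c, 2.79 and 4.61 in Flt3-ITD, and 2.63 and 3.80 in DM. WT was clear of the others, and the 3 mutant groups overlapped. All 5 contacts with this end reached 5 in WT and 0 did in any mutant group, so their listing through WT favours that gap. At X:7991927-7994165 the means were 6.36 and 7.16 in WT, 6.13 and 5.76 in Npm1c, 4.37 and 5.22 in Flt3-ITD and 2.88 and 2.88 in DM, which ran downward with no overlap between the groups. The exception was X:8112560-8120189, with 4.33 and 7.02 in WT, 8.11 and 6.67 in Npm1c, 4.68 and 5.83 in Flt3-ITD and 1.55 and 4.66 in DM, where WT and Npm1c overlapped. Contacts of different baits with 1 end come from the same libraries and are not replicates.

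**Figure D4:**
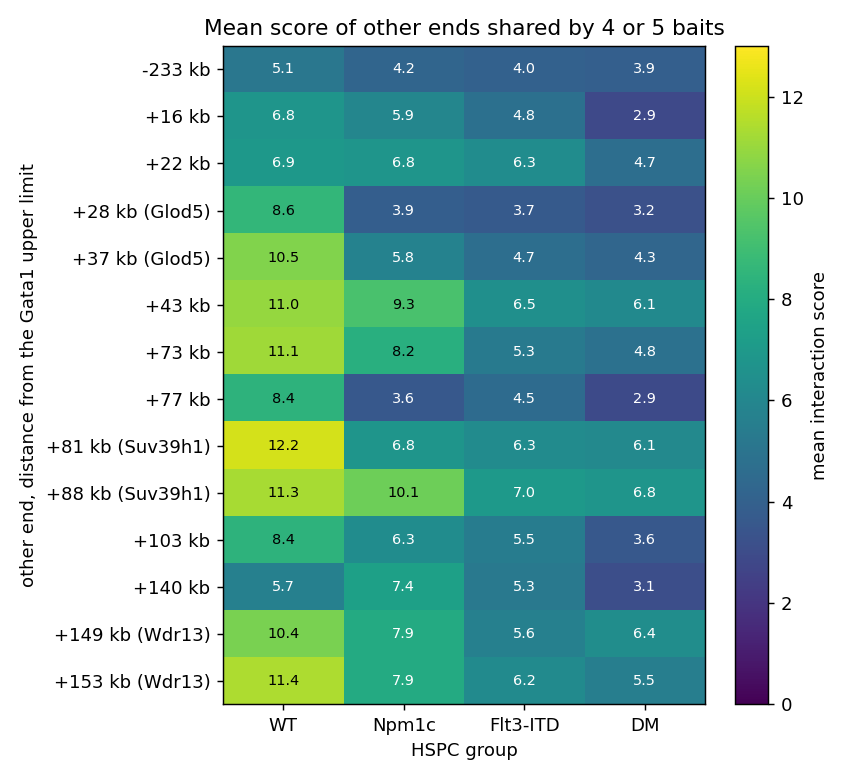
Mean interaction score in each HSPC group of the 14 other ends shared by 4 or 5 baits, placed by their distance in kb from the upper limit of Gata1. WT has the highest mean at 13 of the 14, and the ends at Suv39h1 and Wdr13 are among the strongest.

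Scores were also read by distance, in classes of contacts that were mostly listed through WT. Contacts under 50 kb had mean scores of 7.50 (SD 1.31) in WT and 3.28 (SD 0.39) in DM, and contacts over 150 kb had 8.23 (SD 1.78) and 4.77 (SD 0.88). Of the 25 contacts at 5 or more in DM, 16 lay over 150 kb from the bait, as did 45 of the 120 in WT.

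The locus was also seen from outside. As other ends, the 5 fragments were met by 15 other baits in 32 contacts, with a mean score of 7.22 and 9.56 in WT, 6.02 and 6.86 in Npm1c, 5.58 and 5.41 in Flt3-ITD and 5.19 and 6.04 in DM. Over all 32, WT was highest, and the DM range overlapped both single mutants. The Gata1 upstream fragment differed from its own bait in Npm1c. As the other end of 3 contacts it had a mean score of 5.77 and 10.9 in WT, 8.17 and 8.48 in Npm1c, 5.30 and 4.62 in Flt3-ITD and 5.79 and 3.99 in DM. Npm1c thus lay within the WT range there, with 3 of 3 contacts at 5 or more in both replicates against 2 in WT. The contact from the Was bait, 1 of these 3, was listed through Npm1c alone, which favours that count. Of the 6 contacts of the fragment's own bait, 5 were listed through WT alone, so the 2 views are not alike in listing. The WT mean was above the DM mean in 29 of these 32 contacts. Of the 32, 26 reached 5 in both WT replicates and 11 in both DM replicates. That listing favours WT, and DM against WT chose the locus, so this count and the next are descriptions. The listing of 22 fragment pairs from both ends gave WT above DM from both sides in 22, and as both views can count the same ligation products, the second is no separate measurement. A further 20 pairs of 2 baits were listed from 1 side only, and in 3 of them the DM mean was the higher, all with the Pqbp1/Timm17b fragment as other end. From the Suv39h1 bait that fragment had means of 9.63 in WT and 13.5 in DM, from Rbm3 4.12 and 5.43, and from Ftsj1 2.75 and 6.40.

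In neutrophils no bait of the 4 genes had a listed contact. The window between 7.6 and 8.3 Mb held 9 of 25622 listed neutrophil contacts and 344 of 88624 listed in HSPCs. As the HSPC list pools 4 groups and the neutrophil list holds 1, these counts do not compare the 2 cell types. In WT HSPCs, 120 contacts of the locus baits and 120 of the neighbouring baits reached 5 in both replicates. Of the 9 neutrophil contacts, 3 had the fragment of the Pqbp1 and Timm17b starts as other end. From the bait of Wdr13 the neutrophil libraries scored 5.58 and 8.11, from that of Rbm3, which encodes a cold-inducible RNA-binding protein, 11.4 and 5.37, and from that of Ftsj1, which encodes an RNA methyltransferase, 6.86 and 7.59. Against WT HSPCs the log2 differences were -0.58 (SE 0.48, limma, adjusted p = 0.523), 0.87 (SE 0.46, adjusted p = 0.331) and 1.20 (SE 0.37, adjusted p = 0.160). None passed, where 0.206% of all 14051 contacts in both lists did. A bait with no listed neutrophil contact has no score there, which does not show that contacts were absent.

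The bait tests used limma on the mean log2(score + 1) of a bait. A comparison of 2 groups used only the contacts listed through some other group, and baits with at least 10 such contacts were tested. The Hdac6 bait means in WT and DM chose the locus, so every comparison below that holds WT or DM shares values with that choice, most of all at the Hdac6 promoter, and Npm1c against Flt3-ITD alone holds neither. In Flt3-ITD against WT, the 3 locus baits tested were lower by more than their errors, but none passed an adjusted p of 0.05. The differences were -0.58 (SE 0.18, adjusted p = 0.0521) at Pqbp1/Timm17b, -0.60 (SE 0.19, adjusted p = 0.0615) at the Hdac6 lower end and -0.53 (SE 0.21, adjusted p = 0.0971) at the Hdac6 promoter, and the unadjusted p was under 0.05 in 3 of 3. Over all 1858 baits 33.3% had such a p, 0.592% lower in Flt3-ITD. At the adjusted threshold 7.21% passed, 134 higher and 0 lower, and the median difference was 0.28. Without WT replicate 1, 3 locus baits passed, and 2 passed without either Npm1c replicate, whose libraries enter only the shared estimate of the spread.

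In Npm1c against WT, the difference was -0.25 (SE 0.20, limma, adjusted p = 0.687) at Pqbp1/Timm17b and -0.50 (SE 0.21, adjusted p = 0.410) at the Hdac6 lower end, and 0 of 2 passed (1 at an unadjusted p under 0.05), against 0.102% of 1960 baits (10.7% at the unadjusted threshold). In DM against WT, the contrast known when the genes were chosen, the difference was -0.83 (SE 0.21) at the Hdac6 promoter, -0.67 (SE 0.19) at the Hdac6 lower end and -0.61 (SE 0.19) at Pqbp1/Timm17b. These are descriptions, since the contrast chose the locus. Nothing is read from the 2 of 3 that lay past the limma threshold, where 7.55% of 1841 baits did (1.2% lower; 25.9% at the unadjusted threshold), and the count was 0 without WT replicate 2, either DM replicate or either Flt3-ITD replicate. With each library centred on its X-linked baits the differences in DM were -0.58 (SE 0.19), -0.41 (SE 0.17) and -0.36 (SE 0.17), and those in Flt3-ITD were -0.42, -0.49 and -0.47 in the same order. These comparisons share the WT libraries.

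In DM against Npm1c the difference at the Hdac6 promoter was -0.74 (SE 0.19, limma, adjusted p = 0.0676), and its low DM value is partly built in, as the locus was chosen on it. The Timm17b downstream bait (0.19, SE 0.28), the Hdac6 lower end (-0.19, SE 0.18) and Pqbp1/Timm17b (-0.33, SE 0.17) had adjusted p of 0.732, 0.588 and 0.285. Of the 4, 0 passed and 1 had an unadjusted p under 0.05, against 0.868% of 1729 baits (0.578% lower; 21.2% at the unadjusted threshold). Without Npm1c replicate 2 the Timm17b downstream bait passed, at 0.77 (SE 0.20, adjusted p = 0.0378), which then rests on the low replicate 1.

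DM against Flt3-ITD gave differences from -0.32 (SE 0.27) at the Timm17b downstream bait to 0.00 (SE 0.17) at the Hdac6 lower end, and 0 of 4 passed in limma (0 at an unadjusted p under 0.05), against 4.3% of 1513 baits (4.23% lower; 21.1% at the unadjusted threshold). Npm1c against Flt3-ITD was 0.37 (SE 0.19) at the Hdac6 promoter, 0.27 (SE 0.17) at Pqbp1/Timm17b, 0.22 (SE 0.19) at the Hdac6 lower end and -0.55 (SE 0.28) at the Timm17b downstream bait. None of the 4 passed in limma (0 at an unadjusted p under 0.05), against 0.0587% of 1704 baits (10.6% at the unadjusted threshold), and without Npm1c replicate 2 the Timm17b downstream bait passed at -1.13 (SE 0.19, adjusted p = 0.0112).

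The interaction asks whether DM lies off what the 2 single mutants add up to. It was 0.46 (SE 0.24) at Pqbp1/Timm17b, 0.70 (SE 0.40) at the Timm17b downstream bait, 0.64 (SE 0.26) at the Hdac6 lower end and -0.16 (SE 0.28) at the Hdac6 promoter. None of the 4 passed in limma (1 at an unadjusted p under 0.05), against 7.48% of 2833 baits (7.2% lower; 24.8% at the unadjusted threshold), whose median was -0.21. Without Npm1c replicate 2 the Timm17b downstream bait passed, at 1.27 (SE 0.27, adjusted p = 0.0181). All listed contacts entered this test, so the effect of the choice of contacts was not removed.

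**Figure D5:**
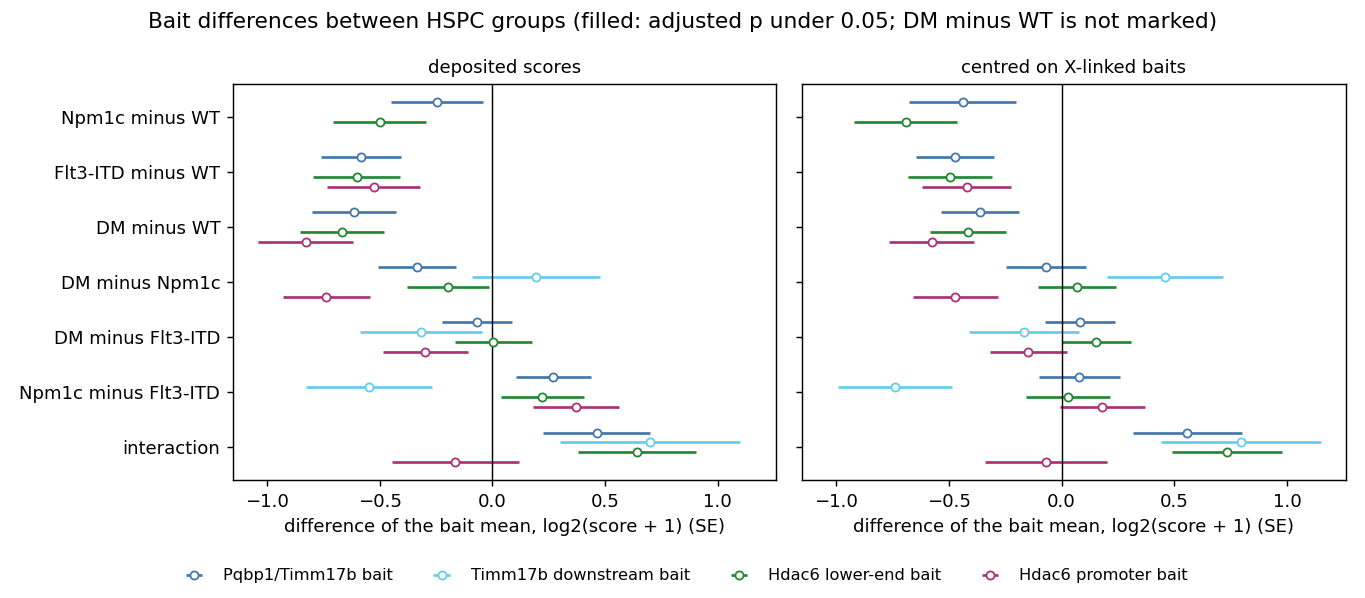
Difference of the bait mean on the log2(score + 1) scale (bars: SE) for each bait with at least 10 usable contacts, with the deposited scores (left) and after centring each library on its X-linked baits (right); a filled point would mark an adjusted p under 0.05, and DM against WT, which chose the locus, is left unmarked. No point is filled in either panel, and in DM against WT the Hdac6 promoter moves from -0.83 on the left to -0.58 on the right.

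Single contacts passed in none of the 7 comparisons, tested over all 88421 contacts, of which 0.31% passed in the Npm1c group, 0.568% in Flt3-ITD and 0.576% in DM against WT, 0.561% in DM against Npm1c, 0.458% in DM against Flt3-ITD, 0.425% in Npm1c against Flt3-ITD and 0.564% in the interaction. Most of the 141 were listed through WT, so counts at an unadjusted p under 0.05 are given only over contacts listed through a group outside the comparison, a choice made after the data were seen, and there too none of the locus passed an adjusted p of 0.05. In Npm1c against WT 6 of 39 were lower and 0 higher (2.28% and 6.58% of all contacts so listed), with a median difference of -0.37 against 0.12. In Flt3-ITD against WT 17 of 60 were lower and 1 higher (1.3% and 9.9%), and the median was -0.64 against 0.23. DM against WT, as a description, had 18 of 64 lower and 1 higher (4.34% and 8.73%), with a median of -0.73 against 0.10. In these 3 comparisons more locus contacts were lower than higher, where over all contacts more were higher than lower.

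Between mutants, the same counts included contacts listed through WT. In DM against Npm1c 17 of 125 were lower and 2 higher (6.24% and 5.32%), in DM against Flt3-ITD 8 of 137 were lower and 2 higher (6.87% and 1.74%), near the background, and in Npm1c against Flt3-ITD 2 of 125 were lower and 4 higher (4.77% and 1.53%).

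The baits most like the Hdac6 promoter over the 8 HSPC libraries were sought among 2256 gene-bearing baits outside the locus with at least 10 contacts. They were those of Glod5 (Pearson r = 0.955), Uba1 (0.945), Prxl2a (0.942), Tsc22d4 (0.942) and Olfr639 (0.933). Glod5 and Uba1 are on X and the others on autosomes. The Glod5 bait lists contacts with every locus fragment, and it and the Hdac6 promoter bait list their common contact from both sides. Its likeness is therefore partly built in. For the Gata1 bait they were Prxl2a (0.943), Otud5 with Pim2 and Slc35a2 (0.934), Alg9 with Fdxacb1 (0.929), Brsk1 (0.906) and Gm1123 (0.905). These values describe 8 libraries of 4 groups and are given without a test. Within the locus, the Gata1 and Hdac6 promoter baits had an r of 0.859 with each other. With the Pqbp1/Timm17b bait the r was 0.938 for Gata1 and 0.872 for the Hdac6 promoter. With the Hdac6 lower-end bait it was 0.839 and 0.824, and with the Timm17b downstream bait 0.441 and 0.374.

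Genes that work with GATA1 or carry related roles were read from 5 lists. Of 16 GATA1 partners and related factors, 13 had a listed bait and 1 to 6 were tested in a comparison. Tal1, a partner of GATA1 in erythroid transcription, passed in the interaction (-1.02, SE 0.25, limma, adjusted p = 0.0269), as 1 of 6 baits tested where 7.48% of all baits passed, and the other comparisons called 0 of this list (1 at an unadjusted p under 0.05, in DM against Npm1c, where 21.2% of all baits had one). Of 26 erythroid and megakaryocyte targets, 18 had a bait and 5 to 7 were tested. The median of the tested targets was 0.21 in Npm1c against WT, 0.25 in Flt3-ITD against WT and 0.01 in DM against WT, where that of all baits was 0.15, 0.28 and 0.09. It was -0.25 in DM against Npm1c, -0.36 in DM against Flt3-ITD, -0.02 in Npm1c against Flt3-ITD and -0.32 in the interaction, where that of all baits was -0.03, -0.16, -0.14 and -0.21.

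Of 12 genes of the histone deacetylase family, 8 had a bait and 1, Hdac10, which encodes a polyamine deacetylase, was tested, on 2 baits. Its bait at chr15:89127373-89129831 was higher in Flt3-ITD than in WT (0.65, SE 0.18, limma, adjusted p = 0.0462), lower in DM than in Flt3-ITD (-0.91, SE 0.21, adjusted p = 0.0355), with an interaction of -1.32 (SE 0.35, adjusted p = 0.0366), where 7.21%, 4.3% and 7.48% of all baits passed. Of 28 X neighbours, 24 had a bait and 2 to 9 were tested. Glod5 passed in DM against WT (-0.69, SE 0.17, adjusted p = 0.0311), where 7.55% of all baits did, and the median of the neighbours tested there was -0.40, against 0.09 over all baits. The tested contacts of Glod5 include ones with locus fragments, and DM against WT chose the locus, so its value is a description. Of 18 neutrophil genes, 14 had a bait, 3 to 5 were tested, and 0 passed in any comparison in limma; at an unadjusted p under 0.05 their baits numbered 3 of 6 in Flt3-ITD against WT, 1 of 6 in Npm1c against Flt3-ITD and 1 of 6 in the interaction, where 33.3%, 10.6% and 24.8% of all baits had such a p.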

How the data were processed

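Promoter contacts of 8 HSPC and 2 neutrophil libraries were used as deposited. Per the labels' protocols, chromatin was crosslinked for 10 min by 1% formaldehyde, cut with HindIII and captured with 39684 probes for 22047 promoters. The build was mm10, per the submitters' processing notes, and the aligner and the interaction caller are not given in the sources used here. The authors' files give 1 score per contact and library, a deposited score with no stated reference, and, per the file headers, the distance in bp. Genes were placed by the limits in RefSeq, GRCm38.p6. Contacts with an end outside the autosomes and X (203) were left out.

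The tests ran on log2(score + 1) in R 4.3.3, by the two-sided moderated test of limma 3.58.1, with p-values adjusted over all baits or contacts (Benjamini-Hochberg, 0.05), with the 8 HSPC libraries in 1 fit, and the 4 WT libraries for neutrophils. The scripts were tested on simulated data. Other steps used Python 3.11.15 with pandas 2.3.3. The members and lists were chosen with earlier results of these data known. The results of 1 target of GATA1 that passed are not reported here, although the counts and medians of its list include it. Named contacts were the 10 with the highest group mean per gene, besides those said to be chosen after their values were seen. Named list genes were the up to 4 with the largest difference among those that passed. Baits most like another were the 5 outside the locus with the highest r. Alternatives were another pseudocount, quantile normalization, all listed contacts, other minimum numbers, X-linked centring, 1 Mb, the replicate block, a filter on low scores, other thresholds and each library left out.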

Additional observations from a re-analysis of the deposited data

How the results depend on the processing

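With 2 libraries a group and no read counts, small differences could not be resolved. A difference larger than its SE is not thereby resolved, as several such differences of locus baits did not pass. Of 345 alternative values of 27 single bait or contact results, 296 had the same direction and side of the threshold, 17 lost the threshold, 18 gained it and 14 changed sign; the cause was not tested. Locus contacts at the threshold: at 3 or more they were 95 in Npm1c, 88 for Flt3-ITD and 68 in DM; at 10 or more 10 in WT, 6 in Npm1c, 0 for Flt3-ITD and 0 in DM; with the mean of the replicates at 5 or more 48 in Flt3-ITD. With 1 replicate left out they were 46 to 51 in Flt3-ITD and 34 to 50 in DM. Locus baits that passed in Flt3-ITD against WT (0 in the main test) were 1 after quantile normalization, 2 over all listed contacts, 1 within 1 Mb, and 0 to 3 with a library of the compared groups left out. In DM against WT, a description (2), they were 0 with a pseudocount of 0.1, 0 with at least 5, 3 or 1 contacts, 0 centred on X-linked baits, and 0 to 3 with a library left out. In DM against Npm1c (0) they were 1 after quantile normalization, over all listed contacts and within 1 Mb, and 0 to 1 with a library left out. Npm1c against Flt3-ITD and the interaction gave 0 to 1 with a library left out, and the interaction gave 1 bait and 2 contacts after quantile normalization. Contact tests over contacts listed through another group, added after seeing the data, gave 0 locus contacts in each of the 6 comparisons.

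Each value at which a sign turned is given as a log2 difference. After quantile normalization it was 0.0654 for Pqbp1/Timm17b in DM against Flt3-ITD and 0.0824 for the Hdac6 promoter in the interaction. Centred on X-linked baits it was 0.0701 for the Hdac6 lower end in DM against Npm1c and 0.0818 for Pqbp1/Timm17b in DM against Flt3-ITD. With a pseudocount of 0.1 it was -0.00515 for the Hdac6 lower end in DM against Flt3-ITD. With 1 library left out, Pqbp1/Timm17b ranged from -0.499 (without WT replicate 1) to 0.00441 (without WT replicate 2) in Npm1c against WT and from -0.159 to 0.0221 in DM against Flt3-ITD, and the Hdac6 lower end from -0.137 to 0.145 in the latter. The Timm17b downstream bait ranged from -0.381 (without Npm1c replicate 1) to 0.767 in DM against Npm1c and from -1.13 to 0.0332 (without Npm1c replicate 1) in Npm1c against Flt3-ITD. The Hdac6 promoter ranged from -0.410 to 0.0822 in the interaction, and the neutrophil difference from the Wdr13 bait from -1.27 (without WT HSPC replicate 1) to 0.106 (without WT HSPC replicate 2).

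Quantile normalization moved the median of all baits in Flt3-ITD against WT from 0.28 to 0.01 and in DM against WT from 0.09 to -0.09, and turned the DM calls from 117 higher and 22 lower to 82 and 133.

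Over all contacts of the HSPC libraries, same-numbered replicates did not deviate together (correlations -0.01 to 0.06). The main tests did not pair the libraries by number. Pairing at the locus alone, or with the neutrophil libraries, was not checked by these correlations. With the replicate block, 1 locus bait in place of 2 passed in DM against WT, and the other counts of locus baits stayed at 0.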
